A study of Homo sapiens with 10 samples.

Results

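The ERVL-MaLR family of transposable elements (TEs) was followed in RNA-seq of H1, a human embryonic stem cell line in wide use, after knockdown of a chromatin or transcription regulator. Members were all rows of the deposited table whose identifier starts with LTR:ERVL-MaLR:, which gave 76 of 14785 rows and 76 of the 973 rows for TE subfamilies. The choice used names only and no measured value. A row stands for all genomic copies of a subfamily, so it has no single chromosome position, and copies in introns, exons and intergenic sequence cannot be told apart. How reads that fit several copies, either strand or a gene around a copy were assigned is not given in the sources used here, so a row may hold reads of other transcripts.

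All cells were H1 cells of a genotype labelled wild type, given shRNA by virus and selected with puromycin. The 5 groups had 2 libraries each. The control was shLUC, an shRNA against luciferase, and the 4 knockdowns were shSMARCA4, shMAFK, shE2F6 and shKDM1A. SMARCA4 is an ATPase of BAF chromatin remodellers, MAFK a small MAF transcription factor, E2F6 a repressive E2F factor that works with a Polycomb complex, and KDM1A a histone demethylase of the CoREST complex. Every group, the control included, received virus packaged in 293T cells. How many hairpins were used per gene and how long cells were kept after selection are not stated. All data come from 1 cell line. The series calls the experiments biological duplicates. The main p-values rest on the spread within duplicates, pooled over the 5 groups and drawn toward that of rows with similar means.

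MaLR stands for mammalian apparent LTR retrotransposon. These elements are relatives of the ERVL endogenous retroviruses that lack the usual retroviral genes and depended on the enzymes of other elements to spread. A full copy has an internal part between 2 long terminal repeats (LTRs); the LTR holds the promoter and the polyadenylation signal, and recombination between LTRs leaves solo LTRs, which are the most common remains. THE1 elements are the youngest and are restricted to primates, MST elements are older, and MLT1 elements are the oldest and are shared among placental mammals. In stem cells LTR elements are repressed by DNA methylation and by histone H3 lysine 9 methylation, and KDM1A is known to repress ERVL elements in mouse embryonic stem cells.

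By name the family held 9 THE1 rows, 13 MST rows, 53 MLT1 rows and the single row MLT-int. Of the 76 rows 40 were LTR rows and 36 were internal rows, marked -int.The values are whole numbers that the authors deposited with nearly equal totals, so read depth is unknown and no interval for counting error is given.

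The whole table sets the frame. Totals lay between 22836548 and 22855295 per library. SMARCA4 was at 12.7% of its shLUC mean in shSMARCA4, KDM1A at 42.1% in shKDM1A, E2F6 at 61.3% in shE2F6 and MAFK at 59.6% in shMAFK. Only SMARCA4 passed the limma adjusted threshold over all rows. MAFK was at 82 and 216 in shMAFK replicates 1 and 2, against 212 and 288 in shLUC, so replicate 2 lay within the control range. KDM1A was at 3290 and 1879 in shKDM1A replicates 1 and 2, against 6344 and 5925 in shLUC, so replicate 1 kept more of it. All 12 pluripotency markers were in the table, while 3 of 8 mesendoderm, 1 of 4 neuroectoderm, 1 of 5 trophoblast and 4 of 4 fibroblast markers were. In shSMARCA4, 1 mesendoderm and 1 neuroectoderm marker were higher and 1 trophoblast and 3 fibroblast markers lower at that threshold; their part in the MaLR values was not tested. Mesendoderm markers summed to 5031 and 1026 in shSMARCA4 replicates 1 and 2 and to 10 to 62 elsewhere, with EOMES and FOXA2 at 0 in some libraries. Neuroectoderm markers summed to 462 and 1004 there and 36 to 149 elsewhere, and trophoblast markers to 30 and 44 there and 125 to 360 elsewhere. Fibroblast markers summed to 5642 and 6812 in shSMARCA4, to 27815 in shKDM1A replicate 1 and to 13657 to 15762 in the other 7 libraries. In shKDM1A replicate 1 COL1A1 (8374) and COL1A2 (13159) were above both shLUC libraries. THY1 (6077, against 8852 and 9056 in shLUC) and PDGFRB (205, against 228 and 218) were below both. The pluripotency gene POU5F1 was at 148866 in shKDM1A replicate 1, against 35710 in both shLUC libraries. The other pluripotency markers did not rise with it as a set. NANOG, LIN28B, DPPA4, TDGF1, PRDM14, SALL4 and ZFP42 were below both shLUC libraries in shKDM1A replicate 1. L1TD1 was above both, and SOX2, LIN28A and DNMT3B lay within the shLUC range. The part of these levels in the shKDM1A results was not tested. Libraries of shKDM1A differed most from each other, with an SD of 0.53 on the log2 scale over all rows against 0.275 in shLUC, so the shKDM1A counts, the family median and the main members are given with and without each of its libraries.

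ERVL-MaLR RNA was present in every library, and no row was called in any comparison with all libraries. No member was listed at 0, and the members together held from 0.619% (shSMARCA4 replicate 1) to 0.822% (shSMARCA4 replicate 2) of the total. The shLUC libraries held 0.649% and 0.655%, shMAFK 0.704% and 0.674%, shE2F6 0.646% and 0.725%, and shKDM1A 0.655% and 0.781%. The highest and lowest libraries of all 10 thus belonged to the same group, and the 2 shLUC libraries were close together. In bulk RNA a change in the number of cells of a kind and in RNA per cell cannot be told apart.

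Row totals depend on the number and length of copies, so they are not compared between rows as expression. The 6 highest means over the 10 libraries were those of the LTR rows MLT1D (mean normalized value 10530, range 9296 to 13159), MLT1C (10394, 8086 to 12340), MSTA (8628, 7440 to 9502), MLT1B (7812, 6490 to 9772), MLT1A0 (7327, 5626 to 10534) and THE1B (7044, 6249 to 8220). Of these, neighbours in the order overlapped in range. The 3 lowest were the internal rows MLT1K-int (93.8, 81 to 112), MLT1E1A-int (90.6, 48 to 114) and MLT1L-int (74.6, 45 to 97). LTR rows had means from 246 to 10530 with a median of 2136, and internal rows from 74.6 to 5146 with a median of 339.

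**Figure D1:**
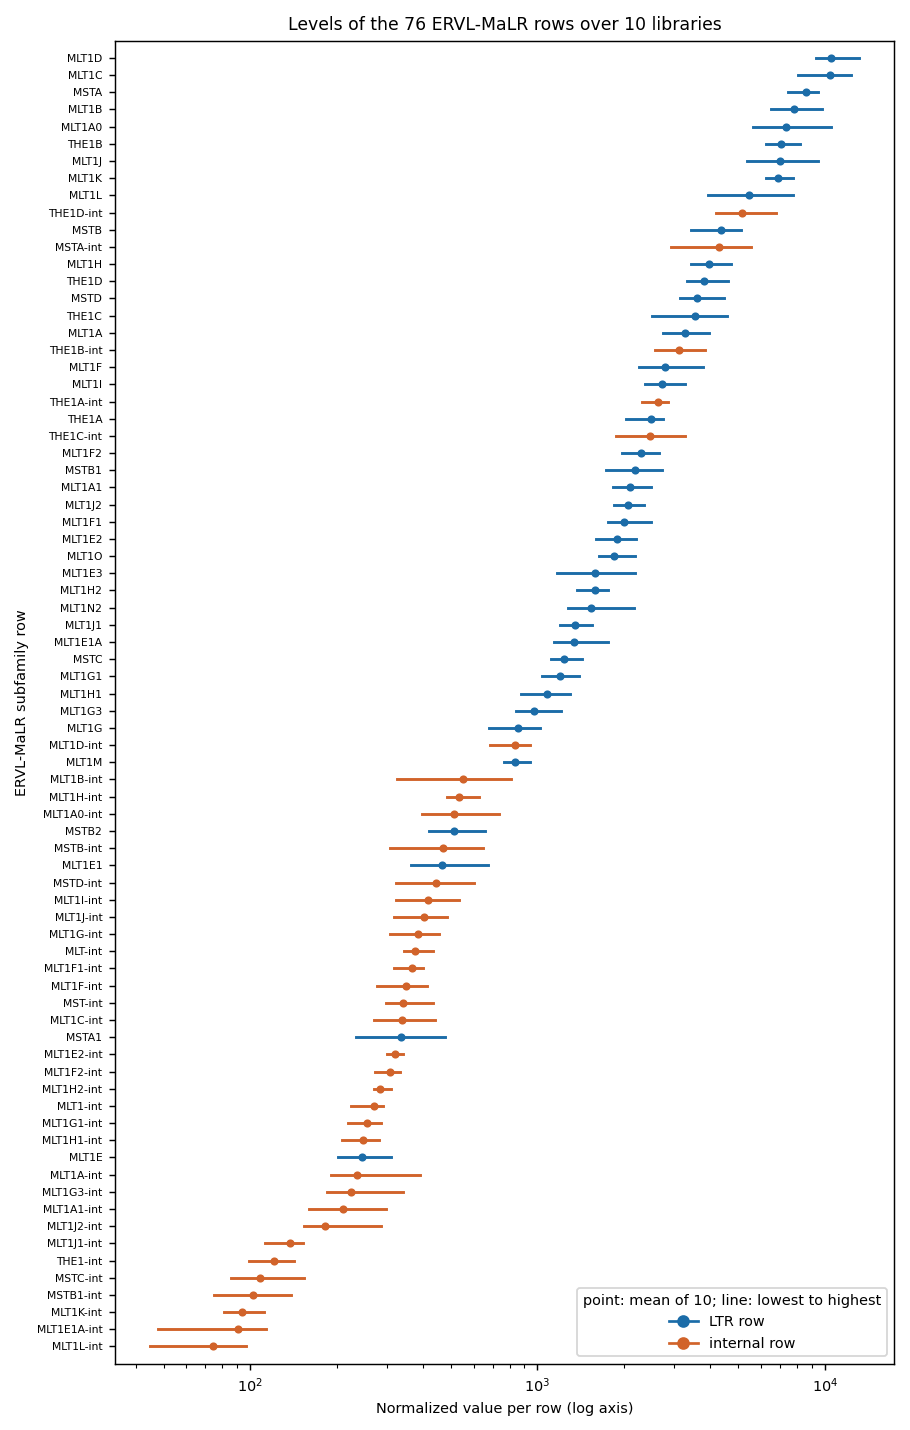
Normalized values (log axis) of the 76 ERVL-MaLR rows, ordered by mean; the point is the mean of 10 libraries and the line runs from the lowest to the highest library, blue for LTR rows and orange for internal rows. Most internal rows lie in the lower part, and the lines are short, with a median ratio of highest to lowest library of 1.48.

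Row totals of THE1 elements were made up differently, which says nothing of level per length or per copy. Among 4 LTR rows (THE1A to THE1D) means ran from 2482 to 7044, and THE1A-int, THE1B-int, THE1C-int and THE1D-int reached 2621, 3122, 2468 and 5146, while THE1-int had 122. THE1D-int exceeded THE1D in every library, at 1.11 to 1.97 times its value, and was the only internal row of the 32 with a matching LTR row to do so. In 29 of the 32 pairs the internal row was below its LTR row in all 10 libraries. At the low end MLT1L-int was 0.00908 to 0.02 and MLT1K-int 0.0115 to 0.0158 times the LTR row. THE1 rows made up 18.5% to 19.7% of the family total, MST rows 15.4% to 17.9% and MLT1 rows 62.3% to 65.9%, so these proportions moved little between libraries.

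Over the 10 libraries the highest value of a member was at most 2.49 times its lowest, with a median of 1.48, against a median of 1.83 over all rows and 1.57 over TE rows. Under 1.5-fold ranges were found for 43 of 76 members (56.6%), against 21.4% of all rows and 39.7% of TE rows. A range of at least 2-fold was found for 6 members (7.89%), against 39.9% of all rows and 17.4% of TE rows. The 6 were MLT1B-int (325 to 809), MLT1E1A-int, MLT1L-int, MSTB-int (306 to 646), MLT1A-int (192 to 392) and MSTA1 (234 to 478), of which MSTA1 is an LTR row and the others are internal. The steadiest were MLT1E2-int, from 300 to 340, and MLT1H2-int, from 270 to 309.

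Each knockdown was compared with shLUC in a limma fit of log2(value + 1) over all rows and libraries, with Benjamini-Hochberg adjustment over all rows; a fold change on this scale understates changes of low rows. With the threshold set at 0.05 after adjustment, limma called 0 of 76 members in shSMARCA4. It called 4.18% of all rows and 0.103% of TE rows there. Likewise 0 members passed in shMAFK (0.0135% of all rows), shE2F6 (0%) and shKDM1A (0.0271%). Of TE rows 0 passed in any of these. At an unadjusted limma p under 0.05 there were 1 member in shSMARCA4 (16.3% of all rows), 1 in shMAFK (8.77%), 2 in shE2F6 (5.09%) and 9 in shKDM1A (11.5%). Of TE rows 2.67%, 1.85%, 1.13% and 8.74% reached that p. As shares of the family the member counts are 1.32%, 1.32%, 2.63% and 11.8%. With all libraries these counts exceeded the share of all rows only in shKDM1A. They exceeded the share of TE rows in shE2F6 and shKDM1A, differences that were not tested. These counts moved with the settings: shSMARCA4 had 9 without its replicate 1, 2 without its replicate 2 and 6 with a spread of its own for each group, and shMAFK had 6 with such spreads and 5 when fitted with shLUC alone. The order of the knockdowns by this count is therefore not fixed. Shares of all rows at that p were not counted under these other settings. By direction, 1 member in shSMARCA4 was above shLUC and 0 below (7.78% and 8.53% of all rows), in shMAFK 0 and 1 (4.27% and 4.49%), in shE2F6 2 and 0 (2.55% and 2.54%), and for shKDM1A 9 and 0 (5.85% and 5.61%). The smallest limma adjusted p of a member was 0.192, 0.364, 0.934 and 0.281 in that order of knockdowns.

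Member changes were small in size. No member differed by 1 or more on the log2 scale in any knockdown, while 5.76%, 2.28%, 1.09% and 3.26% of all rows did. Of TE rows only 0.308%, 0%, 0.103% and 0.719% did, so the lack of such changes was shared by nearly all TE rows. Log2 changes ran from -0.32 to 0.81 in shSMARCA4, -0.91 to 0.57 in shMAFK, -0.45 to 0.68 in shE2F6 and -0.40 to 0.83 in shKDM1A. The 95% limma interval of a single member had a median half-width of 0.42, which is a 1.34-fold change. That interval excluded a 2-fold change in both directions for 74 of 76 members with shSMARCA4, 74 with shMAFK, 73 with shE2F6 and 70 with shKDM1A. These intervals are not adjusted for the number of rows, so a change had to exceed the half-width by some margin to be called.

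**Figure D2:**
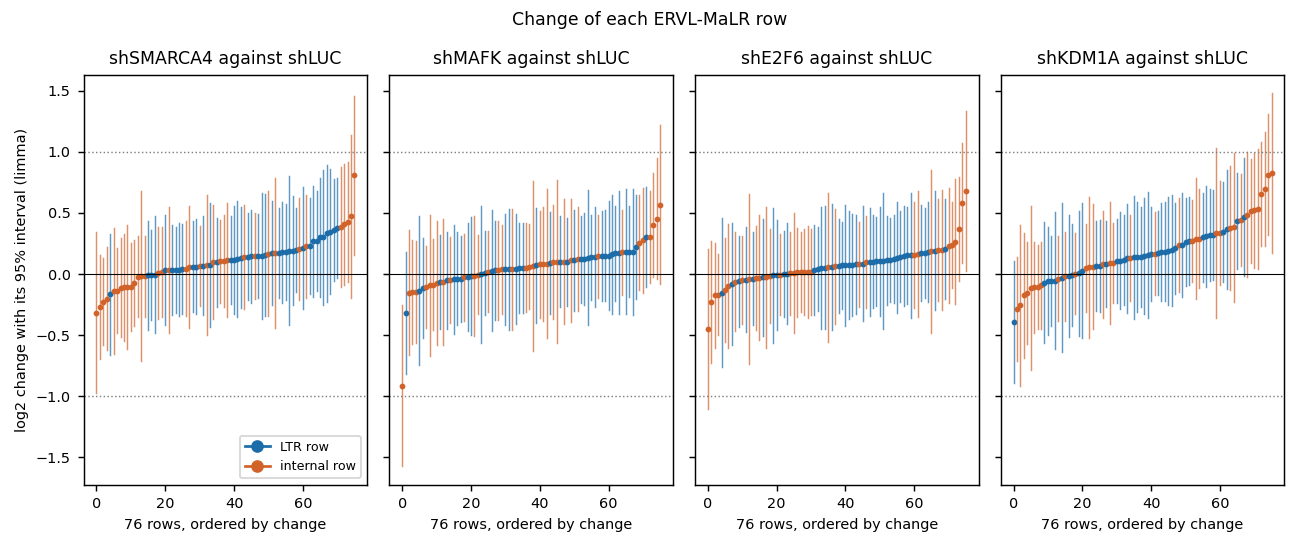
Log2 change of each of the 76 ERVL-MaLR rows against shLUC with its 95% limma interval, ordered within each knockdown; dotted lines mark 2-fold changes, blue is an LTR row and orange an internal row. All points lie within the dotted lines, and the highest point in each panel is the internal row MLT1E1A-int.

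A test of whether any of the 5 groups differed (limma F-test, adjusted over all rows) called 0 members, where 5.07% of all rows were called, and 4 members at an unadjusted p under 0.05, against 21.1%. Between the 4 knockdowns, where the shLUC mean plays no part, 0 members were called (6.64% of all rows) and 3 had an unadjusted p under 0.05 (23.6%). Of TE rows 0.103% and 0.308% were called in these F-tests, and 3.49% and 3.91% had an unadjusted p under 0.05. The members gave 5.26% and 3.95% at that unadjusted p, near the TE shares. The smallest F-test values belonged in both tests to MSTA-int, MLT1A0-int and MLT1A-int. With 1 library left out the unadjusted counts ran from 0 to 9 over the 5 groups (0 without shE2F6 replicate 2 or shLUC replicate 2, 9 without shKDM1A replicate 2) and from 1 to 9 over the 4 knockdowns (9 without shKDM1A replicate 2). How many of all rows reached that p with 1 library left out was not counted. For the test between knockdowns with all libraries, the limma adjusted p of MSTA-int, MLT1A0-int and MLT1A-int was 0.133, 0.154 and 0.186.

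More members lay above shLUC than below it. The log2 change was above 0 for 58 of 76 members under shSMARCA4, 52 under shMAFK, 53 under shE2F6 and 58 under shKDM1A, against 50.9%, 49%, 49.2% and 47.9% of all rows. Median log2 changes of the family were 0.11, 0.06, 0.07 and 0.14, beside 0.07, 0.03, 0.05 and 0.06 over TE rows and 0.01, -0.0042, -0.0034 and -0.02 over all rows. These 4 comparisons share the 2 shLUC libraries, so they are not independent of each other. When each library was centred on the median of its TE rows, the medians were 0.0064, 0.045, -0.0062 and -0.042, so the sign turned in shE2F6 and shKDM1A. That centring moved the median of all rows to -0.10 in shSMARCA4 and -0.20 in shKDM1A.

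Single libraries carried much of the shift. In shSMARCA4 the median deviation of the members from the shLUC mean was -0.06 in replicate 1 and 0.27 in replicate 2, so the family median was -0.06 without replicate 2. All 40 LTR rows of shSMARCA4 replicate 2 lay above both shLUC libraries, against 8 in replicate 1; of TE rows 62.8% and 25.5% did, and of all rows 41.5% and 38.2%. In shE2F6 the LTR rows had medians of -0.0039 and 0.17, with 11 and 33 of 40 above both controls (TE rows 36.7% and 42.4%, all rows 34.8% and 38.1%). In shMAFK the libraries were closer, at 0.09 and 0.04, with 26 and 21 of 40 (TE rows 45.6% and 36.2%, all rows 35.8% and 37.7%). In shKDM1A the LTR rows had medians of 0.01 and 0.29, with 18 and 39 of 40 (TE rows 37.7% and 66.7%, all rows 41.8% and 34%). Summed TE rows moved with these libraries, at 15.8% of the total in shSMARCA4 replicate 2 and 16% in shKDM1A replicate 2 against 14.5% in both shLUC libraries; the part of this share in the MaLR values was not tested.

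**Figure D3:**
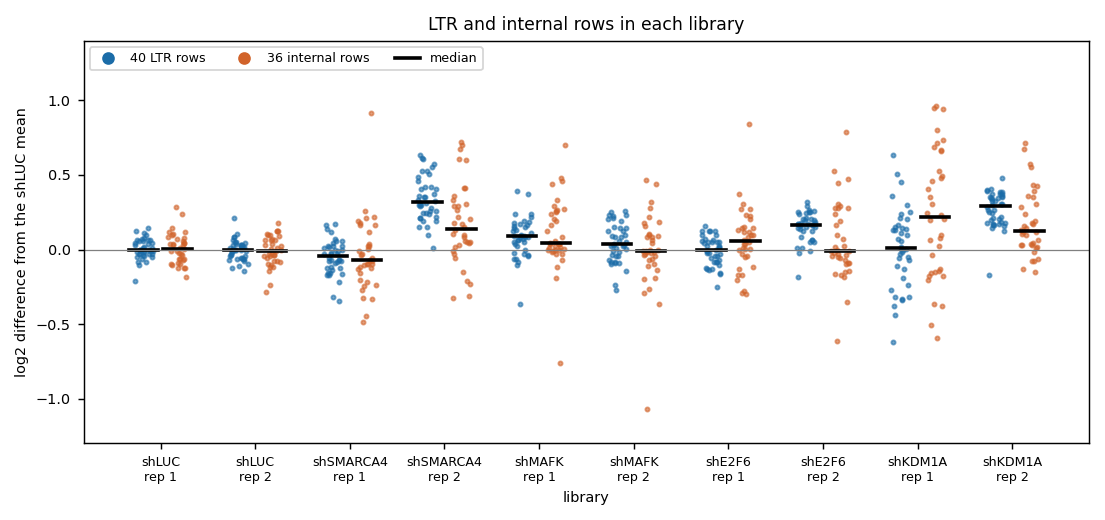
Log2 difference of each row from the mean of the 2 shLUC libraries, by library, for 40 LTR rows (blue) and 36 internal rows (orange), with the median as a black bar. The LTR rows of shSMARCA4 replicate 2 and shKDM1A replicate 2 sit above 0 almost as a block, at medians of 0.32 and 0.29, and those of the other replicate do not.

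Internal rows had median deviations that shared the order of the replicates with the LTR rows in shSMARCA4 and not in shKDM1A. Their median deviations were -0.07 and 0.14 (shSMARCA4), 0.04 and -0.01 (shMAFK), 0.06 and -0.01 (shE2F6), and 0.22 and 0.13 (shKDM1A). In shKDM1A replicate 1 internal rows made up 20.1% of the family total, against 15.7% to 18% in the other 9 libraries. The ratio of internal to LTR row was above both shLUC libraries in 17 of 32 pairs in that library and in 7 of 32 in shKDM1A replicate 2. The other 6 knockdown libraries had 6 to 15 such pairs, with 15 in shE2F6 replicate 1 and 11 in shSMARCA4 replicate 1. The shKDM1A replicate 1 library also had the lowest TE share, 12.8% of the total. The MaLR family was 5.11% of TE counts there, against 4.47% and 4.51% in shLUC. Only shSMARCA4 replicate 2, at 5.19%, held a larger MaLR share of TE counts.

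Between replicates the members differed in size by a median of 0.12 (shLUC), 0.35 (shSMARCA4), 0.09 (shMAFK), 0.15 (shE2F6) and 0.23 (shKDM1A) on the log2 scale. All rows of the table gave 0.15, 0.22, 0.16, 0.20 and 0.38, so the members exceeded the table only in shSMARCA4, a difference that was not tested. In shSMARCA4 replicate 2 was above replicate 1 in 68 of 76 members, including all 40 LTR rows. The 3 largest replicate differences were all in shKDM1A: MLT1B-int (325 and 630), MLT1E3 (1174 and 2061) and THE1C (2505 and 4034), each lower in replicate 1.

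**Figure D4:**
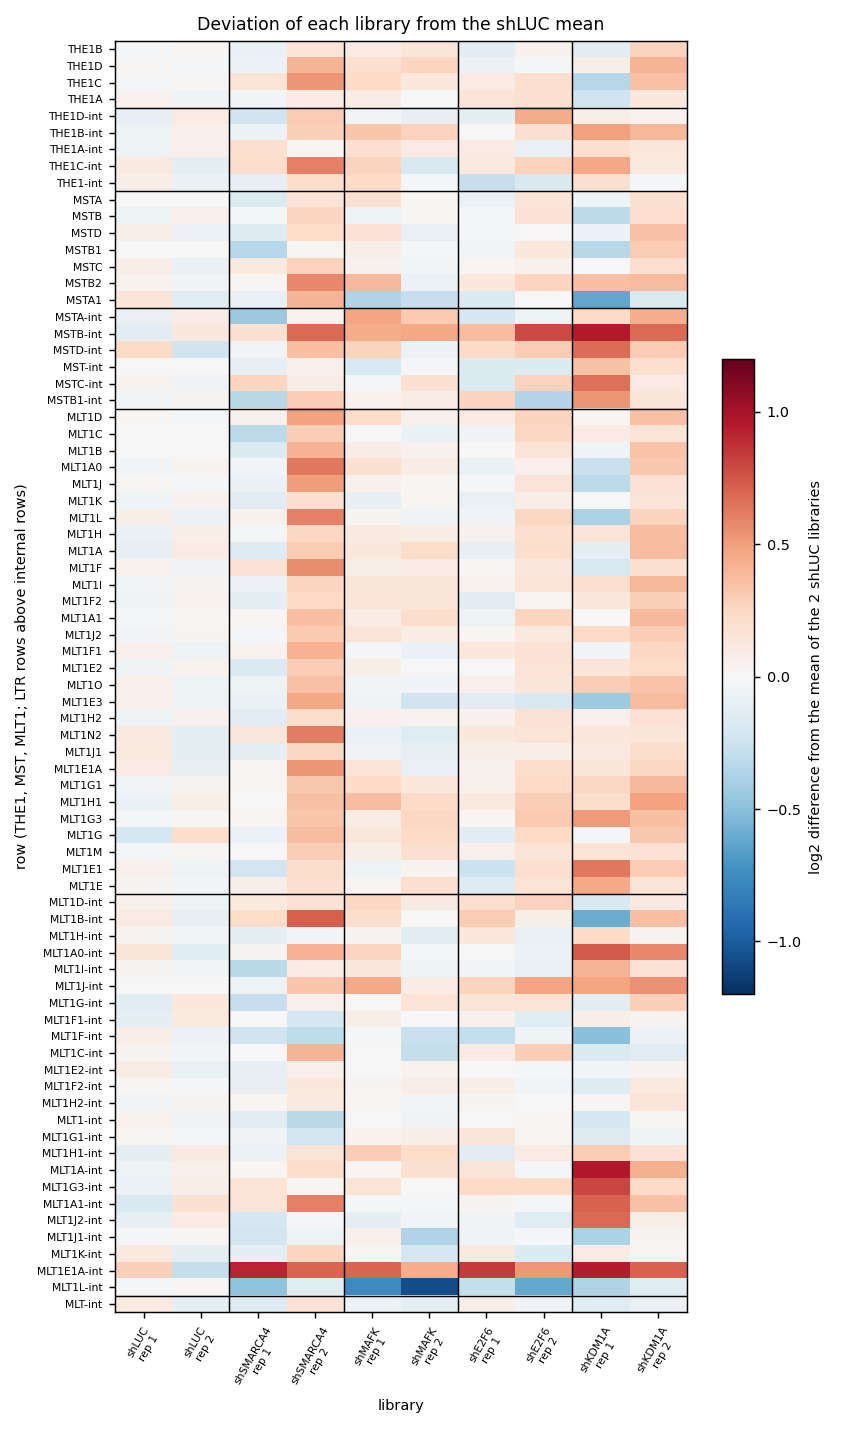
Log2 difference of each member (rows, grouped as THE1, MST and MLT1 with LTR rows above internal rows, then MLT-int) from the mean of the 2 shLUC libraries in all 10 libraries (columns); red is above and blue below. The LTR blocks change colour by library, while MSTB-int and MLT1E1A-int are red and MLT1L-int is blue in all 8 knockdown libraries.

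KDM1A knockdown gave the most members at an unadjusted limma p under 0.05. All 9 were above shLUC, against 5.85% of all rows and 8.43% of TE rows above shLUC at that p, and 8 of the 9 were internal rows. Only 0.308% of TE rows were below shLUC at that p, so TE rows at large shared the direction. The median log2 change was nevertheless alike for LTR rows (0.14) and internal rows (0.15), and the internal row had the larger change in 15 of the 32 pairs. The 9 members were MSTB-int, MLT1A0-int, MLT1A-int, MLT1E1A-int, MLT1J-int, THE1B-int, MLT1G3-int, MLT1A1-int and the LTR row MLT1G3. Several were chosen for naming after their values were seen. The count was 5 without shKDM1A replicate 1, 16 without its replicate 2, 4 without shLUC replicate 1 and 3 without shLUC replicate 2. It was 4 with libraries centred on TE rows and 3 with a spread of its own for each group. How many of all rows reached that p under these settings was not counted, so a larger count is not read as a result about the members. Without replicate 2, where the lone shKDM1A library is assumed to vary like the other groups, 5 members passed the limma adjusted threshold, all internal: MLT1A-int, MLT1G3-int, MSTB-int, MLT1J2-int and MLT1A0-int, with log2 changes from 0.68 to 0.96. In that fit 3235 rows of the table passed, against 4 with all libraries, so the calls rest on 1 library that stands apart in the whole table.

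MSTB-int, the internal part of MSTB elements, had normalized values of 306 and 364 in shLUC and 646 and 534 in shKDM1A. The shSMARCA4 libraries had 378 and 534, those of shMAFK 454 and 461, and those of shE2F6 433 and 578. Each of the 8 knockdown libraries was above both shLUC libraries, and only shKDM1A replicate 1 exceeded 600. The log2 change was 0.81 (SE 0.22, limma adjusted p 0.281) in shKDM1A, 0.58 (limma adjusted p 0.934) in shE2F6, 0.45 (0.62) in shMAFK and 0.43 (0.391) in shSMARCA4. None was past the threshold. In shKDM1A the change was 0.68 without its replicate 1 and 0.95 without its replicate 2, and in shSMARCA4 0.68 and 0.18 likewise.

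MLT1A-int held normalized values of 392 and 270 in shKDM1A and 192 and 210 in shLUC, while the other 6 libraries held 197 to 232. Both shKDM1A libraries were therefore the highest of the 10, and they were far apart. The log2 change of MLT1A-int was 0.69 (SE 0.21, limma adjusted p 0.334), 0.96 without replicate 2 and 0.43 without replicate 1. MLT1A0-int held 734 and 657 in shKDM1A and 488 and 398 in shLUC, and 588 (shSMARCA4 replicate 2) was the highest value elsewhere. The log2 change was 0.65 (SE 0.19, limma adjusted p 0.315), 0.57 without shKDM1A replicate 1 and 0.73 without replicate 2. In the LTR rows of the same subfamilies, shKDM1A replicate 1 lay below both shLUC libraries and replicate 2 above both. MLT1A held 2818 and 3966 against 2830 and 3262 in shLUC, and MLT1A0 held 5626 and 8496 against 6647 and 6928.

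MSTA-int had normalized values of 4704 and 5367 in shKDM1A and 5536 and 4958 in shMAFK, with 3738 and 4228 in shLUC. In shSMARCA4 it had 2922 and 4092 and in shE2F6 3450 and 3821. The libraries of shMAFK and shKDM1A were the highest 4 of the 10. The log2 change was 0.40 (SE 0.19, limma adjusted p 0.612) in shMAFK and 0.34 (limma adjusted p 0.489) in shKDM1A, where it was 0.43 without replicate 1 and 0.24 without replicate 2. The MST internal rows as a set had both shKDM1A libraries above both shLUC libraries in 6 of 6 rows (against 17.9% of all rows and 29.6% of TE rows), with a median log2 change of 0.36; among the 7 MST LTR rows 1 was above and 1 below, with a median of 0.07. This set was singled out after its values were seen, and the count above shLUC was 2 of 6 in shSMARCA4, 3 in shMAFK and 1 in shE2F6. The medians of these 6 rows were 0.60 in shKDM1A replicate 1 and 0.25 in replicate 2, relative to shLUC.

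**Figure D5:**
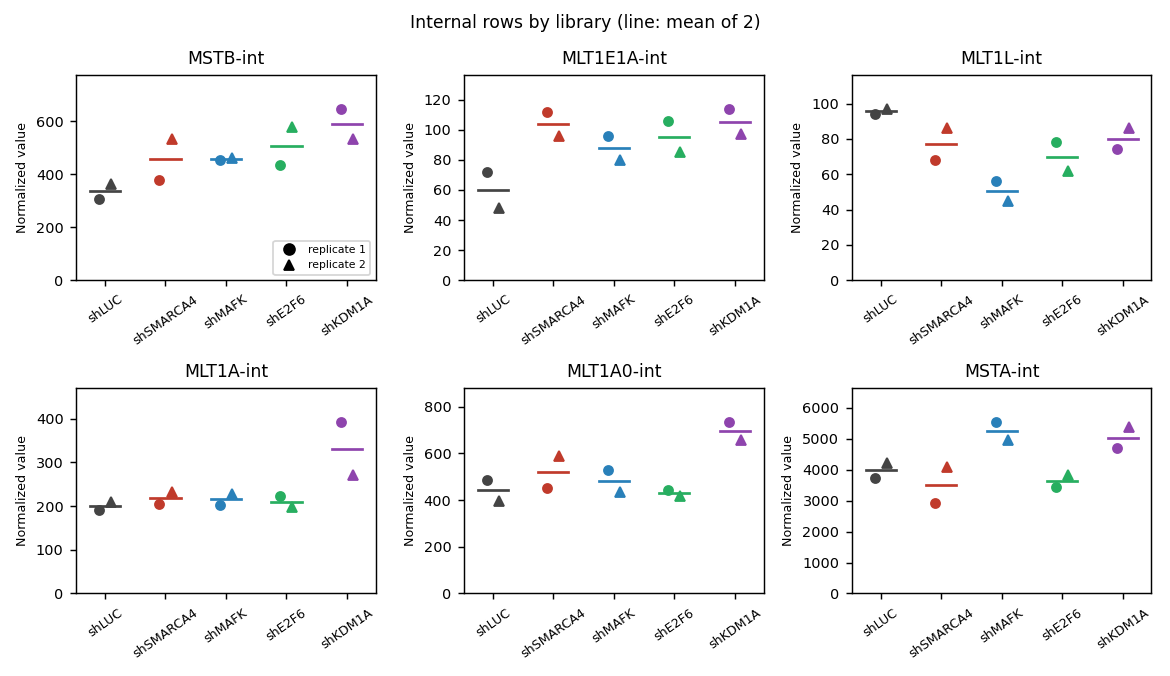
Normalized values of 6 internal rows in each library (circle, replicate 1; triangle, replicate 2; line, mean of 2; axes start at 0). MSTB-int and MLT1E1A-int are lowest and MLT1L-int highest in shLUC, while MLT1A-int and MLT1A0-int are highest in shKDM1A.

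Without regard to the size of the change, both libraries of a knockdown lay above both shLUC libraries in 14 members in shSMARCA4 (18.4%, against 25.6% of all rows), 30 in shMAFK (39.5%, against 23.8%), 19 in shE2F6 (25%, against 20.3%) and 35 in shKDM1A (46.1%, against 17.9%). Both lay below in 5 members (6.58%, against 25.4%), 3 (3.95%, against 25.3%), 5 (6.58%, against 20.4%) and 4 (5.26%, against 20.9%). TE rows gave 20%, 25.6%, 22.1% and 29.6% above and 8.32%, 10.3%, 7.09% and 4.62% below, so few rows below shLUC was a trait of TE rows at large. For rows above shLUC the members exceeded the TE share in shMAFK, shE2F6 and shKDM1A. For rows below shLUC they exceeded it only in shKDM1A. These differences were not tested. Of the 35 in shKDM1A, 18 were LTR rows and 17 internal rows.

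Few members lay on the same side in every knockdown. MSTB-int, MLT1E1A-int and the LTR row MLT1G3 lay above shLUC without overlap in all 4 knockdowns (3 of 76; 2.06% of all rows), and MLT1L-int lay below in all 4 (1 of 76; 1.86% of all rows). These are the same 2 control libraries each time, so a control value alone can place a row here. Another 10 members lay above in 3 of 4 knockdowns (6.59% of all rows) and 0 below (7.39%). MLT1E1A-int had normalized values of 72 and 48 in shLUC and 80 to 114 in the 8 knockdown libraries. For MLT1E1A-int the log2 change was 0.83 (SE 0.29, limma adjusted p 0.378) in shKDM1A, 0.81 (0.192) in shSMARCA4, 0.68 (0.964) in shE2F6 and 0.57 (0.648) in shMAFK. Without shLUC replicate 1 these changes were 1.12, 1.10, 0.97 and 0.86 in the same order, and without shLUC replicate 2 they were 0.54, 0.52, 0.39 and 0.28, so they rest much on which control is used. Without shKDM1A replicate 1 or 2 the shKDM1A change was 0.71 or 0.94. MLT1G3 had 844 and 856 in shLUC and 866 to 1208 elsewhere.

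MLT1L-int was the member with the largest change below the control. Its shLUC values were 94 and 97, while shMAFK had 56 and 45, shSMARCA4 68 and 86, shE2F6 78 and 62, and shKDM1A 74 and 86. The shMAFK libraries were the lowest of the 10. Its log2 change in shMAFK was -0.91 (SE 0.29, limma adjusted p 0.364), and its LTR row MLT1L had 5235 and 4958 there against 5367 and 4852 in shLUC. MLT1L-int has the lowest mean of the family, and the pseudocount and small steps in value weigh most there.

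Other members named by rule had smaller changes. In shSMARCA4, MLT1B-int (572 and 809, against 524 and 459 in shLUC) had a log2 change of 0.47 (limma adjusted p 0.506), 0.72 without shSMARCA4 replicate 1 and 0.22 without replicate 2. Below shLUC there were MLT1F-int (332 and 316, against 412 and 372; -0.27, limma adjusted p 0.558) and MLT1-int (257 and 224, against 290 and 272; -0.23, limma adjusted p 0.56). In shMAFK, MSTA1 (280 and 298, against 398 and 326) was at -0.32 (limma adjusted p 0.802) and MST-int (298 and 334, against 338 and 341) at -0.11 (limma adjusted p 0.955). In shE2F6, MLT1J-int (400 and 460, against 332 and 331) was at 0.37 (limma adjusted p 0.987), THE1-int (99 and 106, against 127 and 114) at -0.23 and MST-int (302 in both libraries) at -0.17 (both limma adjusted p 1). In shKDM1A, MSTA1 (234 and 320) was at -0.40 (limma adjusted p 0.491; -0.17 without replicate 1 and -0.62 without replicate 2) and MLT1C-int (292 and 301, against 338 and 322) at -0.15 (limma adjusted p 0.725).

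By age group the order of the medians differed between knockdowns, and MST rows had the highest in shKDM1A. THE1 rows, the youngest, had median log2 changes of 0.10, 0.12, 0.09 and 0.09 for shSMARCA4, shMAFK, shE2F6 and shKDM1A. MST rows had 0.12, 0.07, 0.04 and 0.27, and MLT1 rows, the oldest, 0.12, 0.05, 0.07 and 0.15. All 9 THE1 rows were above 0 in shSMARCA4 and 8 of 9 in shMAFK and in shKDM1A, with changes of at most 0.44 in size. THE1B-int had the largest of these, with 3821 and 3565 in shKDM1A and 2596 and 2832 in shLUC (0.44 on the log2 scale with an SE of 0.17, limma adjusted p 0.402; 0.39 without shKDM1A replicate 1 and 0.49 without replicate 2). Its LTR row THE1B, with 6249 and 8220 in shKDM1A and 6746 and 6928 in shLUC, straddled the controls.

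Related LTR families were set beside the members. ERVL rows (115), the closest relatives, had median log2 changes of 0.11, 0.07, 0.08 and 0.26 in shSMARCA4, shMAFK, shE2F6 and shKDM1A. ERV1 rows (274) had 0.08, 0.03, 0.07 and 0.08, and ERVK rows (38) 0.12, 0.05, 0.04 and -0.03. In shKDM1A replicate 1 the median deviation from shLUC was 0.09 in ERVL-MaLR rows, 0.24 in ERVL, 0.02 in ERV1 and -0.26 in ERVK, and in replicate 2 it was 0.22, 0.21, 0.18 and 0.12. Families thus lay further apart in replicate 1 than in replicate 2. Differences between families were not tested.

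Factors that repress repeats were then read in the same fit, from a list of 30 symbols of which 27 were in the table (TASOR and FAM208A name the same gene, part of the HUSH silencing complex). At the limma adjusted threshold 0 of 27 passed in any knockdown, with 2, 3, 2 and 3 at an unadjusted limma p under 0.05 for shSMARCA4, shMAFK, shE2F6 and shKDM1A, where 16.3%, 8.77%, 5.09% and 11.5% of all rows reached it. The list holds KDM1A itself, which is 1 of the 3 in shKDM1A. SUV39H1, a histone H3 lysine 9 methyltransferase, had log2 changes of -0.81 (limma adjusted p 0.142) in shMAFK and -0.48 (limma adjusted p 0.366) in shKDM1A. CBX5, a heterochromatin protein that binds that mark, had 0.76 (limma adjusted p 0.157) in shSMARCA4, and HDAC2, a histone deacetylase, had -0.45 (limma adjusted p 0.168) there. The methyltransferase EHMT2 (-0.34, limma adjusted p 0.524) and the heterochromatin protein CBX1 (-0.39, limma adjusted p 0.514) were below shLUC in shMAFK. FAM208A was at 0.65 (limma adjusted p 0.426) in shKDM1A. Its values there were 3507 and 1780, against 1418 and 1776 in shLUC, so replicate 2 lay near a control. In shE2F6 DNMT3B, a DNA methyltransferase, was at 0.34 (limma adjusted p 0.901) and RCOR2, a CoREST subunit, at -0.37 (limma adjusted p 0.956). These factors were chosen for naming after their values were seen. Median log2 changes of the list were 0.02, 0, 0.03 and 0.12.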

How the data were processed

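RNA-seq of 10 libraries (5 groups of 2) was analysed; groups and replicate numbers come from the sample titles. The submitters' processing notes name STAR, STARsolo and hg38, with no role; annotation and normalization are not given in the sources used here. The deposited values are scores, whole numbers normalized by the authors: all libraries had a median of 594 and equal values at 80.3% of ranks. Values therefore sit on a shared grid, and for 3 of the 10 members with means above 5000 both shLUC libraries held the same value. The deposited group means were not used.

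Values were analysed as log2(value + 1) with limma 3.58.1 (R 4.3.3; lmFit, eBayes with trend, two-sided) on all 14785 rows and 10 libraries, with 5 residual degrees of freedom, Benjamini-Hochberg adjustment over all rows and a threshold of 0.05. No row was filtered. Summaries used Python 3.11.15 and pandas 2.3.3, and plots matplotlib 3.10.9. How large a change in a member has to be for the fit to call it was not tested. With 2 libraries per group, a count of 0 called does not show that no member changed.

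Named members were the 6 highest and 3 lowest by mean, the 3 largest changes in each direction per knockdown among rows that did not overlap with shLUC and whose higher group averaged 50 or more, the 3 smallest p of each F-test, the 3 largest replicate differences, and THE1 and internal rows by range. Members, lists and tests were chosen with earlier results of these data known. Same-numbered libraries were not taken as pairs: correlations of replicate deviations ran from -0.05 to 0.337, and 2 of 10 exceeded 0.1.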

Additional observations from a re-analysis of the deposited data

How the results depend on the processing

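Counts of members past the limma adjusted threshold were 0 in all 4 knockdown comparisons and both F-tests with a pseudocount of 0.5 or 16, quantile normalization, centring on TE rows, group weights, no mean-variance trend or a mean of at least 200. They were also 0 in each comparison that could be made without both shKDM1A libraries, and in each comparison fitted on its 2 groups alone. With the replicate number as a block they were 0 as well, and at an unadjusted p the block gave 3 members in shMAFK in place of 1. Correlations of replicate deviations were low for most pairs of groups. Of the 40 LTR rows, replicate 2 was above replicate 1 in 40 (shSMARCA4), 38 (shE2F6), 37 (shKDM1A), 13 (shMAFK) and 19 (shLUC). A shift shared by replicate number was not tested in these rows. With 1 library left out they stayed 0 in shSMARCA4, shMAFK and shE2F6 and ran from 0 to 5 in shKDM1A, 0 to 2 over the 5 groups and 0 to 4 over the 4 knockdowns; each value above 0 came without shKDM1A replicate 2. Family medians then ran from -0.06 to 0.27 in shSMARCA4, 0.02 to 0.08 in shMAFK, 0.02 to 0.15 in shE2F6 and 0.09 to 0.22 in shKDM1A. Centring on TE rows gave -0.0418 in shKDM1A, in place of 0.14. The median family share of 0.665% was 0.732% without the 20 highest rows of each library and 0.543% without the 3 highest members. Without shKDM1A replicate 2, far more rows of the whole table were called than with all libraries. In that setting the share called was larger over all rows than over the members. The member calls above 0 are therefore not read as a result about the members, and why they differ was not tested. The unknown depth gives no counting error, and 2 libraries per group limit what can be detected.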
